A study of Arabidopsis thaliana with 6 samples.

Results

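The genes described here encode proteins of the small, 40S subunit of the cytosolic ribosome of Arabidopsis thaliana. A list of 59 nuclear loci was taken, and each was looked for in the authors' table of 26765 rows by its locus code or its symbol. Of these, 56 had a row of their own, and all 56 were tested by the authors. The other 3 share a row with a neighbouring gene and are kept apart below. The 56 genes encode 26 proteins, 23 of which have 2 or more of the 56. RNA came from shoots, the above-ground parts, of 17-day Col-0 seedlings kept at 24 °C in 16 h days, as 3 wild type and 3 epic2 samples labelled biological replicates. Which gene is altered in epic2 is not stated in those labels, so its level could not serve as a check of them. The authors pooled the replicates into 1 level per group, in FPKM, which counts fragments relative to transcript length and to the size of the library. They also gave their own test between the groups. Their groups are named silex and epic2; with only 2 genotypes in the labels, silex was read as the wild type by elimination. Levels therefore carry no spread of their own, and the depth is unknown.

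The 40S subunit binds the mRNA, scans it for the start codon and holds the decoding centre, where codon and anticodon are matched. It consists of an rRNA and a set of proteins in a head, a body and a platform. In Arabidopsis nearly every ribosomal protein is encoded by a small family of paralogues on different chromosomes. Loss of single genes is known to give pointed first leaves, slow growth or arrested embryos. The promoters of plant ribosomal protein genes are known for the telo box and site II elements, which are linked to expression in dividing cells.

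The stretches of 150 bases just before the annotated gene start are given for 4 genes that the results return to. AT5G15200, AT4G31700 and AT2G21580 were called higher in epic2. AT5G39850, the weakly expressed paralogue of AT5G15200, was added after its values were seen. None of the 4 stretches overlaps another annotated gene. Sequences are from the RefSeq TAIR10.1 assembly, 5′ to 3′ on the gene's strand, and capitals mark the telo box core AAACCCT and the site II elements TGGGCC and TGGGCT in either orientation. They lie at chr5:4936430-4936579 (minus strand), chr5:15949760-15949909 (plus strand), chr4:15347805-15347954 (minus strand) and chr2:9236331-9236480 (plus strand).
RPS9 AT5G15200: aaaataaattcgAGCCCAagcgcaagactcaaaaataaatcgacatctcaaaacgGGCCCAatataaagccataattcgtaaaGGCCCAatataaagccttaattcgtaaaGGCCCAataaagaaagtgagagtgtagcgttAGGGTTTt
RPS9 AT5G39850: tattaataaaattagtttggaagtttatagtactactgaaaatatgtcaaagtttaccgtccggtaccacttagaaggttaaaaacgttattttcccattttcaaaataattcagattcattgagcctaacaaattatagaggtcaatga
RPS6 AT4G31700: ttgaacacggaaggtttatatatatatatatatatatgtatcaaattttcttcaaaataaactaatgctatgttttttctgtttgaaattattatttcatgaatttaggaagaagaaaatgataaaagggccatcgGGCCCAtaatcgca
RPS25 AT2G21580: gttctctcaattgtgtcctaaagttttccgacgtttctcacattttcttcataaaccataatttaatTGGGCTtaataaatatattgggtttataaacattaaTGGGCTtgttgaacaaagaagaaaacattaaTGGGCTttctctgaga
The first of the RPS9 genes has 4 site II elements and 1 telo box core before its start. Its paralogue AT5G39850 has no marked element in the stretch shown. Its 2 site II elements lie in the 50 bases after the RefSeq start, which the counts of elements further on include. The start of an authors' row can differ from the RefSeq start. The row of AT5G39850 starts at 15950022, so these 2 elements lie before the start of the row.

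The comparison of epic2 with silex asked which transcripts differ between the genotypes. Most 40S genes stood slightly higher in epic2. The median level of the 56 genes was 270.2 FPKM (silex) and 309.6 FPKM (epic2), and their summed level was 15096 FPKM (silex) and 17541 FPKM (epic2), a ratio of 1.16. Their share of all FPKM in the table was 1.55% in silex and 1.69% in epic2. At the authors' q of 0.05, 19 of the 56 rose, 0 fell and 37 did not pass in the authors' deposited table. By the same rule 9.51% of all 18916 tested rows were higher and 8.80% were lower. At an unadjusted p under 0.05 the authors' Cuffdiff test had 33 members higher and 1 lower. No share of all tested rows at that p is given, here or beside the unadjusted counts further on. Such counts therefore do not show how far the genes differ from other rows. When the authors' p-values were adjusted again by the Benjamini-Hochberg method over all tested rows, 11 members rose, against 8.80% of all tested rows. In bulk shoots, more cells of a type and more RNA per cell cannot be told apart.

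The differences were small and alike. The log2 fold change (epic2 over silex) in the authors' deposited table was above 0 for 53 members and below 0 for 3, with a median of 0.20 and an interquartile range from 0.17 to 0.24. The median difference in FPKM was 15.2%. The standard error implied by the authors' test, the log2 fold change divided by their test statistic, had a median of 0.09 over the members. The called members were between 17.0% and 25.1% higher. Of the 19, 4 had a q of 0.01 or less and 7 had a q above 0.04 in the authors' deposited table, while 7 members that did not pass had a q between 0.05 and 0.10. The called genes thus pass into the others with no gap in the size of their change.

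**Figure D1:**
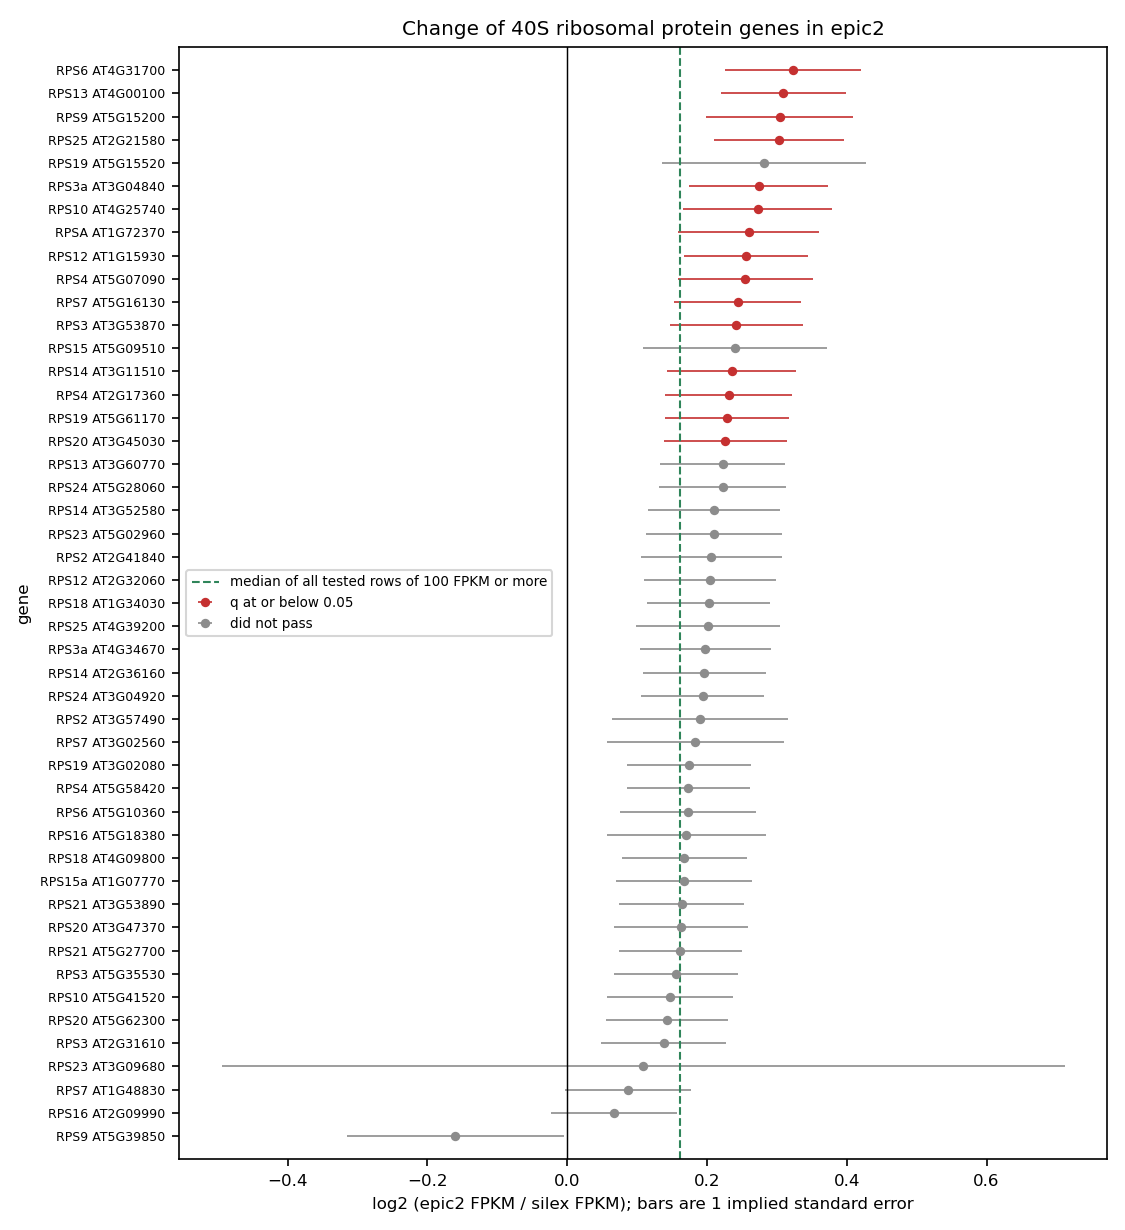
Log2 fold change of 47 of the 56 genes with a row of their own, epic2 over silex in the authors' deposited table, with bars of 1 implied standard error. Red points passed the authors' q of 0.05 and grey points did not. The dashed line at 0.16 is the median of all tested rows of 100 FPKM or more, and 1 of the genes shown, RPS9 AT5G39850, lies below 0.

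Highly expressed genes as a whole stood higher in epic2, and the 40S genes have to be read against them. Among the 1390 tested rows averaging at least 100 FPKM, log2 fold changes had a median of 0.16 with an interquartile range from -0.01 to 0.28, 74.5% were above 0, 30.4% were called higher and 8.63% lower. Of the 56 members, 49 had a mean of 100 FPKM or more. All 49 were above 0, and 19 (38.8%) were called higher. With the members left out, the median of the remaining 1341 rows was also 0.16. Of the 49, 42 lay above 0.16 and 43 lay within the interquartile range of all rows of that level. The share called higher among all rows was 30.2% between 100 and 200 FPKM, 32.9% between 200 and 400 FPKM and 39.7% between 400 and 800 FPKM. The members called in those bins were 2 of 8, 13 of 31 and 4 of 10.

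Each of the 49 lay within 2 implied standard errors of 0.16. When all log2 changes were centred on that median and the p-values recomputed, an alternative chosen after seeing the data, 0 members passed, while 9.28% of the rows of 100 FPKM or more were still called higher. Spread among the members was narrow. The standard deviation of the log2 fold change over the 49 was 0.06, below the median implied standard error of a single gene, 0.09. None of the 49 lay over 2 implied standard errors from their median of 0.21, and 7 lay over 1. These genes could not be ranked by their change at this precision.

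**Figure D2:**
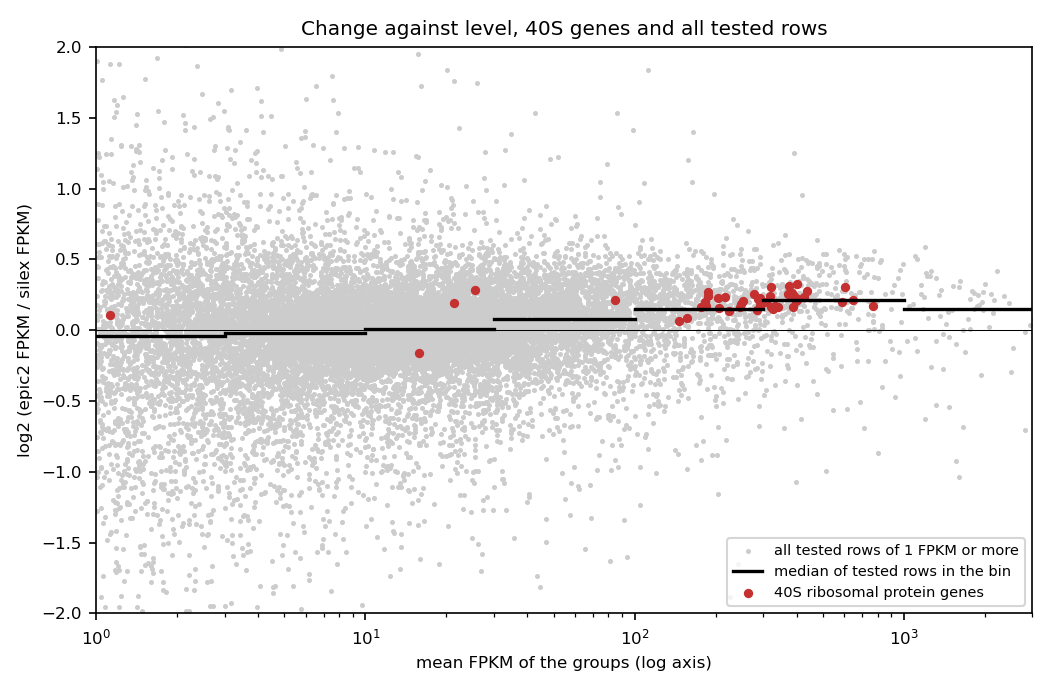
Log2 fold change (epic2 over silex, authors' deposited table) against mean FPKM on a log axis for all tested rows of 1 FPKM or more (grey) and 47 of the 40S genes (red); points beyond 2 on either side are not drawn. Black bars are medians of all rows in a bin. Above 100 FPKM the red points gather near the black bars, in which the median is itself above 0.

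The proteins that line the mRNA entry channel are RPS2, RPS3 and RPS9, whose bacterial counterparts are known to unwind mRNA. RPS9 AT5G15200 (chromosome 5, 4934883 to 4936408 in TAIR10) rose from 539.8 FPKM (silex) to 666.5 FPKM (epic2) (log2 fold change 0.30 with implied standard error 0.11, q = 0.02 in the authors' deposited table). Its paralogue AT5G39850 stood at 16.7 FPKM (silex) and 14.9 FPKM (epic2) and did not pass. RPS3 AT3G53870 rose from 357.7 to 423.0 FPKM (q = 0.0458 in the authors' deposited table). The other RPS3 genes did not pass, at 213.4 and 234.8 FPKM for AT2G31610 and 195.1 and 217.3 FPKM for AT5G35530. Neither RPS2 gene passed. In all, 2 of 7 genes of the entry channel rose. Among all tested rows, 30.4% of those of 100 FPKM or more and 7.85% of those under 100 FPKM were called higher. The 7 genes are of both levels, since RPS2 AT3G57490 and RPS9 AT5G39850 had means of 21.4 and 15.8 FPKM.

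RPS23 lies at the decoding centre and is known to influence the accuracy of decoding. Its genes differ widely in level. AT5G02960 stood at 600.7 FPKM (silex) and 694.8 FPKM (epic2) and did not pass. AT3G09680 had the lowest level of the 56, 1.08 FPKM (silex) and 1.17 FPKM (epic2). At that level the implied standard error of its log2 fold change was 0.60.

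The mRNA exit and the platform hold RPSA, RPS3a and RPS14, among others. RPSA AT1G72370, known as P40, whose yeast counterpart is needed for maturation of the subunit, rose from 349.5 to 418.4 FPKM (q = 0.0444 in the authors' deposited table). RPS3a AT3G04840, of the platform, rose from 394.9 to 477.4 FPKM (q = 0.0279 in the authors' deposited table). Its paralogue AT4G34670 did not pass, at 271.8 and 311.7 FPKM. RPS14 AT3G11510 rose from 391.8 to 461.1 FPKM (q = 0.0467 in the authors' deposited table), while AT2G36160 (286.4 and 328.1 FPKM) and AT3G52580 (78.8 and 91.1 FPKM) did not pass. So 3 of the 8 genes of this region rose. Of all tested rows, 30.4% of those of 100 FPKM or more did, and 7.85% of those under 100 FPKM, the level of AT3G52580. Each of the 8 had a log2 fold change above 0, as had 74.5% of the rows of 100 FPKM or more.

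In the head, 7 of the 19 genes with a row of their own rose. Silex levels of the 19 ran from 23.0 to 722.8 FPKM. Of all tested rows, 7.85% under 100 FPKM and 30.2% between 100 and 200 FPKM were called higher. The share was 32.9% between 200 and 400 FPKM and 39.7% between 400 and 800 FPKM. RPS10 AT4G25740 rose from 169.3 to 204.4 FPKM (q = 0.0452 in the authors' deposited table), and its paralogue AT5G41520, at 310.2 and 343.5 FPKM, did not pass. RPS12 AT1G15930 rose from 252.6 to 301.5 FPKM (q = 0.0203 in the authors' deposited table), and AT2G32060 did not pass at 236.0 and 271.9 FPKM.

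RPS25, known in yeast and human cells for a role in initiation at internal ribosome entry sites, has 2 genes in the set. AT2G21580 rose from 288.5 to 355.9 FPKM (log2 fold change 0.30 with implied standard error 0.09, q = 0.00719 in the authors' deposited table). AT4G39200, the more abundant paralogue, did not pass, at 547.8 and 629.7 FPKM. RPS19 AT5G61170 rose from 269.8 to 316.2 FPKM (q = 0.0416 in the authors' deposited table). AT3G02080, of near-equal level in silex at 274.7 FPKM, stood at 310.0 FPKM in epic2 and did not pass, nor did AT5G15520 at 23.0 and 28.0 FPKM. RPS20 AT3G45030 rose from 189.0 to 221.1 FPKM (q = 0.0441 in the authors' deposited table), while AT3G47370 (166.2 and 186.1 FPKM) and AT5G62300 (270.5 and 298.7 FPKM) did not pass. The genes of RPS15, RPS16 and RPS18 that had their own rows did not pass either. RPS16 AT5G18380, at 722.8 and 813.5 FPKM, had the highest level of the genes named here. Its paralogue AT2G09990, at 142.4 and 149.2 FPKM, had a log2 fold change of 0.07 in the authors' deposited table. Neither did the 3 shared rows, for which the log2 fold change in the authors' deposited table ran from 0.11 to 0.17.

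In the body, 7 of 20 genes rose, against 30.4% of all tested rows of 100 FPKM or more and 7.85% of those under 100 FPKM. Genes of both levels are among the 20. RPS6, the protein phosphorylated by S6 kinase downstream of the TOR kinase, had the largest change. RPS6 AT4G31700 (chromosome 4, 15346072 to 15347727) rose from 357.9 FPKM (silex) to 447.8 FPKM (epic2) (log2 fold change 0.32 with implied standard error 0.10, q = 0.00575 in the authors' deposited table). Its paralogue AT5G10360 did not pass, at 312.7 and 352.5 FPKM. The smallest q belonged to RPS13A AT4G00100 (chromosome 4, 37084 to 38312), whose loss is known to give pointed first leaves. It rose from 335.6 to 415.8 FPKM (log2 fold change 0.31 with implied standard error 0.09, q = 0.00392 in the authors' deposited table). Its paralogue AT3G60770, at 265.0 and 309.2 FPKM, missed the threshold narrowly at q = 0.0521 in the authors' deposited table.

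RPS4 had 2 called genes of 3. AT5G07090 rose from 340.3 to 406.1 FPKM (q = 0.0384 in the authors' deposited table) and AT2G17360 from 199.1 to 233.7 FPKM (q = 0.0467), while AT5G58420 did not pass, at 173.8 and 196.0 FPKM. RPS7 AT5G16130 rose from 292.1 to 345.9 FPKM (q = 0.0336 in the authors' deposited table). AT3G02560, at 232.8 and 264.3 FPKM, and AT1G48830, at 152.5 and 162.0 FPKM, did not pass. No RPS15a, RPS21 or RPS24 gene passed.

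**Figure D3:**
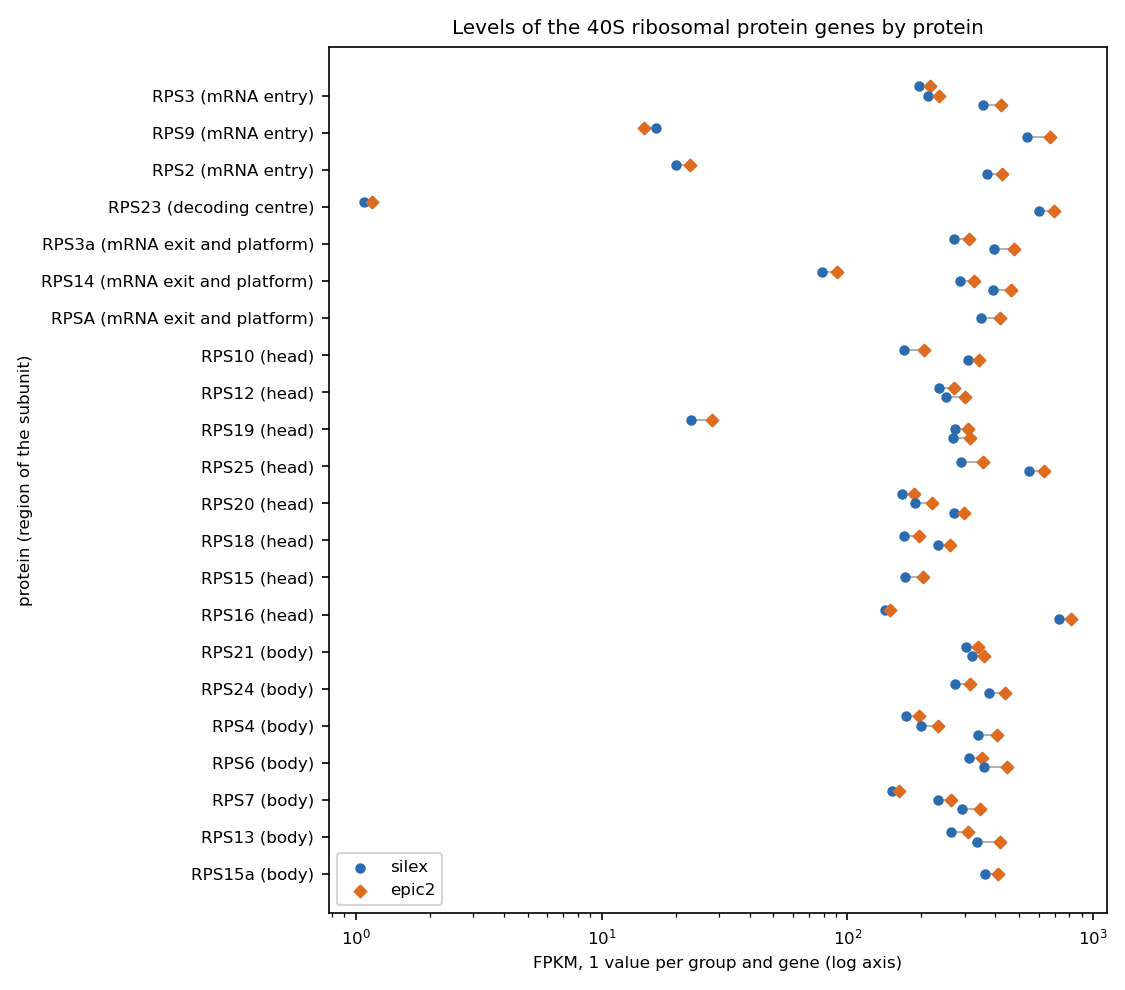
FPKM of 47 of the 40S genes with a row of their own in silex (blue circles) and epic2 (orange diamonds) on a log axis, by protein and region of the subunit; a line joins the values of a gene. Of the 47 genes 42 have a mean of 100 FPKM or more, and the few weak genes sit beside an abundant paralogue.

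The genes that did not share the upward direction were weakly expressed. Of the 7 members under 100 FPKM, 0 passed the authors' q of 0.05 in the Cuffdiff test, with 1 higher and 1 lower at an unadjusted p under 0.05; 7.85% of all tested rows under 100 FPKM were called higher. The 3 genes with a lower value in epic2 were all in this class. Among them, RPS9 AT5G39850 had a log2 fold change of -0.16 (implied standard error 0.16) in the authors' deposited table. Of the 56 rows, 8 overlap another annotated gene, including that of the called AT1G72370, and the strand of the counting is not stated.

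The summed level of each protein was far more even than that of its genes. Protein sums in silex ran from 171.8 FPKM for RPS15, whose other gene shares a row, to 865.2 FPKM for RPS16, a 5.04-fold range with a median of 601.2 FPKM. With all small subunit genes of each protein counted, the range was 2.45-fold, from 360.5 to 881.7 FPKM. All 26 sums were higher in epic2, by a log2 ratio between 0.15 for RPS16 and 0.29 for RPS9. Of the 26 proteins, 16 had at least 1 called gene.

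Most paralogues of a protein differed in their change by less than the error of the difference. Of the 37 pairs of paralogues with rows of their own, 31 differed in log2 fold change by less than 1 combined standard error, and 25 differed by 0.1 or less. The largest shift of share was in RPS6, where AT4G31700 held 53.4% of the protein's summed FPKM in silex and 56.0% in epic2, a shift of 2.58 points. The median shift was 0.81 points. For the RPS6 pair the difference of log2 fold changes was 0.15 with a combined standard error of 0.14, so that 1 gene passed and the other did not while the difference between them stayed near its error. The same is true of each other protein with called and uncalled genes above 100 FPKM, where the largest difference, in RPS7, was 1.22 combined standard errors.

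Of the 37 pairs, 2 differed by 2 combined standard errors or more, with no adjustment for the number of pairs compared. The RPS9 genes were such a pair, with a difference of 0.46 and a combined standard error of 0.19, and the weak paralogue had the lower value in epic2. The abundant RPS9 gene held 97.0% of the protein's sum in silex and 97.8% in epic2. The coding sequences of the RPS9 pair are 80.8% identical, and identity over the 37 pairs ran from 74.5% to 98.2%. For 37 of the 56 genes no 50-base window of the mRNA occurs in RNA of another gene, and 5 genes exceed 10%, among them both RPS16 genes and RPS19 AT5G15520.

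**Figure D4:**
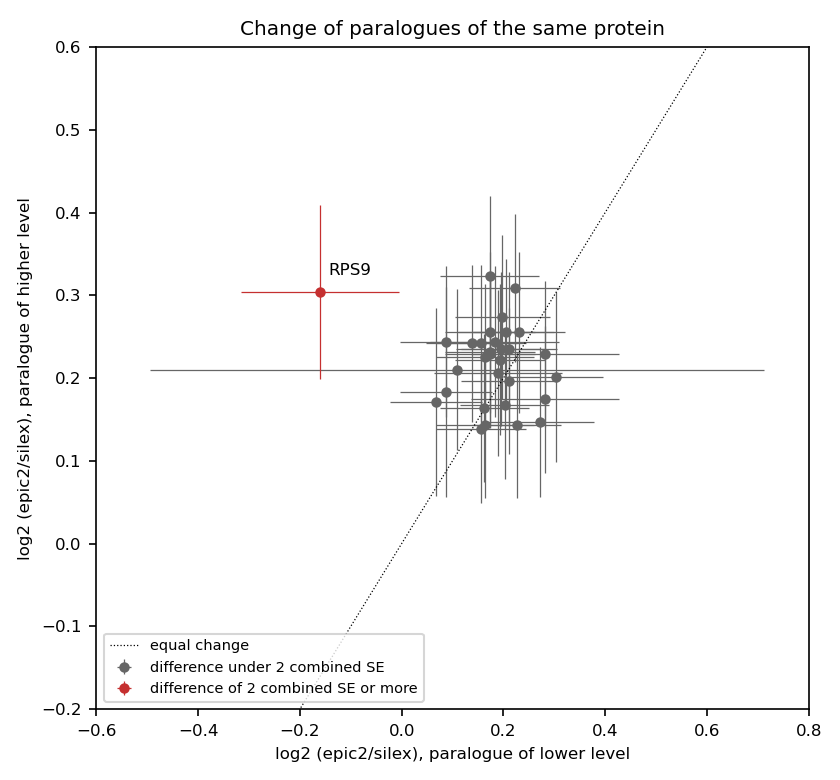
Log2 fold change (epic2 over silex) of the paralogue with the higher level against that of the paralogue with the lower level, for 31 of the 37 pairs, with bars of 1 implied standard error; the axes differ in scale and the dotted line marks equal change. Most pairs cluster near the line, and the RPS9 pair (red) lies to its left.

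Promoter elements were common in the set. In windows of 250 bases before to 50 bases after the RefSeq gene start, read on both strands, the telo box core AAACCCT occurred for 36 of the 59 genes (61.0%), against 10.02% of 27443 protein-coding genes. A site II element, TGGGCC or TGGGCT, occurred for 42 (71.2%), against 21.7%. A palindrome TGGGCCCA counts once on each strand. Both kinds occurred together for 29 genes (49.2%), against 3.19% of all genes, and 49 (83.1%) had at least 1 of them, against 28.6%. A match describes the letters only and is not evidence of a bound site.

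Called and uncalled genes did not stand far apart in this respect. Of the 19 called genes 16 (84.2%) had an element of either kind, as had 30 of the 37 (81.1%) that did not pass. The telo box core was found for 52.6% of the called genes and 64.9% of the others, and site II for 78.9% and 67.6%. The median log2 fold change was 0.21 over the 46 genes with an element and 0.18 over the 10 without. RPS13A AT4G00100, with the smallest q, was among the latter. Its row starts at 37084, while the 250 bases read before its RefSeq start end at 36915. The bases nearest the start of the row were thus not read. The same holds for most of the 10, among them RPS19 AT5G15520 and RPS20 AT5G62300, and for some genes with an element. The contrast of genes with and without an element thus rests partly on windows that stop short of the start of the row. The shares and medians describe small groups with no test.

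**Figure D5:**
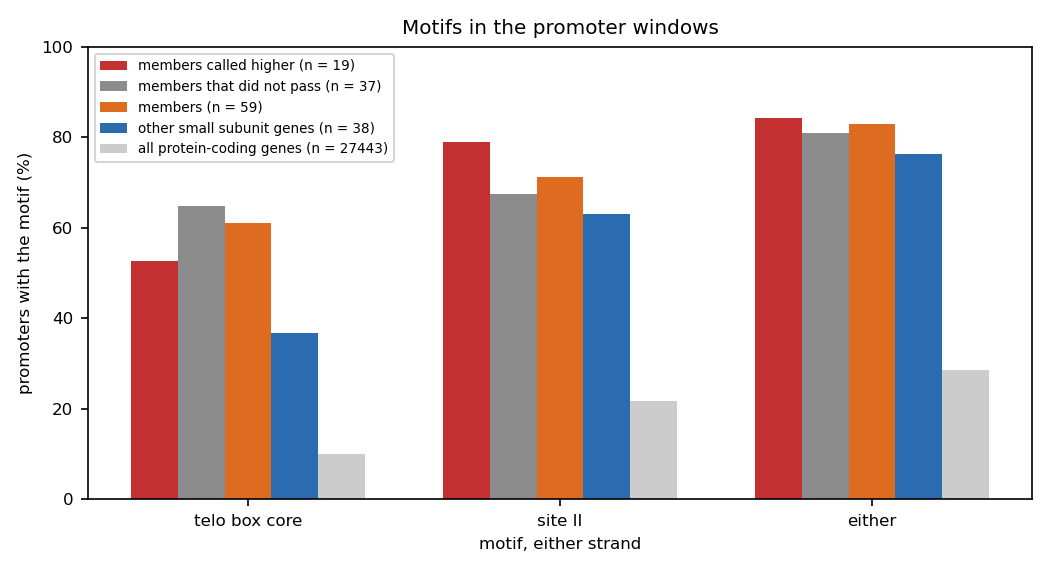
Percentage of promoter windows that hold the telo box core, a site II element or either, on either strand, for the called 40S genes, those that did not pass, all 59, other small subunit genes and all protein-coding genes. In each class the 40S genes exceed the bar of all protein-coding genes, at 28.6% for either element.

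The small subunit genes outside the list had a median change close to that of the members. They are other paralogues and further proteins such as RPS26 to RPS30 and RACK1, a scaffold protein on the head of the subunit. Of 32 tested, 8 rose, 0 fell and 24 did not pass, with a median log2 fold change of 0.19 in the authors' deposited table, and at an unadjusted p under 0.05 the Cuffdiff test had 18 higher and 0 lower. By the same rule 9.51% of all tested rows were higher. All 8 were among the 21 of 100 FPKM or more (38.1%), a level at which 30.4% of all tested rows were called higher. Those with the larger changes included RPS26 AT2G40510 (167.7 FPKM in silex and 203.7 in epic2), RPS30 AT5G56670 (373.1 and 448.0 FPKM) and RACK1 AT1G18080 (333.3 and 399.5 FPKM).

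Genes for making the subunit and for TOR signalling were lower in level and mostly did not pass. Of 18 tested, 1 rose, 0 fell and 17 did not pass, with a median log2 fold change of 0.03 in the authors' deposited table and the same counts at an unadjusted p under 0.05 in the Cuffdiff test. Their mean levels had a median of 20.0 FPKM. Of all tested rows under 100 FPKM, 7.85% were called higher, and the median log2 fold change was 0.003. The gene that rose was S6K1 AT3G08730, an S6 kinase, from 72.7 FPKM (silex) to 88.3 FPKM (epic2) (q = 0.0099 in the authors' deposited table). S6K2 AT3G08720 did not pass, at 3.33 and 2.77 FPKM. NUC1, a nucleolin, stood at 142.3 and 139.6 FPKM, and FIB1, a fibrillarin that acts in rRNA modification, at 159.8 and 176.7 FPKM. The test of TOR itself failed in the authors' deposited table, where it is listed at 10.5 and 10.2 FPKM.

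Some markers of dividing and meristem cells were also higher in epic2. Of 10 such markers 8 were tested and 3 rose, against 7.85% of all tested rows under 100 FPKM, and the summed level of all 10 was 90.2 FPKM (silex) and 112.2 FPKM (epic2). CYCD3;1, a D-type cyclin, rose from 19.1 to 31.3 FPKM, KNOLLE, a syntaxin of cytokinesis, from 24.9 to 30.8 FPKM, and ANT, a regulator of organ growth, from 11.6 to 14.2 FPKM. The rise of CYCD3;1 makes up most of the difference in the summed level. The meristem markers STM (5.28 FPKM in silex and 5.10 in epic2) and KNAT1 (4.07 and 3.59 FPKM) had lower values in epic2 and did not pass. PCNA1, CYCB1;1 and CDKB1;1 had higher values and did not pass. WUS and CLV3 were at most 0.179 FPKM in either group and not tested. Of 6 root markers 3 were tested, and 2 rose, from low levels, where 7.85% of all tested rows under 100 FPKM did. CASP1, of the endodermis, rose from 0.252 to 1.52 FPKM and FRO2, an iron reductase, from 0.857 to 1.74 FPKM. SHR, at 9.04 and 9.65 FPKM, did not pass and makes up most of the summed level of all 6, which was 10.4 FPKM (silex) and 13.3 FPKM (epic2). Of 6 tested leaf markers, with means from 2463 to 7969 FPKM, 0 passed in the Cuffdiff test, nor did any have an unadjusted p under 0.05. Their log2 fold change was below 0 for 4 and above 0 for 2, with a median of -0.10. The implied standard errors ran from 0.24 to 0.39, each larger than the median change of the 40S genes, 0.20. A change of that size could thus not have passed in the leaf markers. How often other rows of their level were called is not given. The part of these markers in the levels of the 40S genes was not tested.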

How the data were processed

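Total RNA of 3 wild type and 3 epic2 samples was made into TruSeq libraries and sequenced as single reads of 50 bases, as the labels' protocols state. The submitters' processing notes name the tools TopHat, Cufflinks and Cuffdiff and the build TAIR10, and give no versions. For each gene the authors deposited a single FPKM value per group that pools the replicates; how the groups were scaled to each other is not stated. The deposited table also holds the authors' log2 fold change, test statistic (a score of the Cuffdiff test), p-value and q-value. Of its 26765 rows the authors tested 18916, with 7783 lacking data, 62 failed and 4 holding too much data. Depth is unknown. The labels do not say whether replicates were grown apart, so p-values speak to no more than these 6 samples, whose spread may be technical. The implied standard errors come from the authors' test and are not a spread of single genes measured here.

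The list of members, the other gene lists and the level classes were chosen with earlier results of these data known. Members were matched to rows by locus code (46) or symbol (10), checked by position against RefSeq TAIR10.1, whose nuclear coordinates are those of TAIR10. A gene counted as called where the authors' q was at or below 0.05. The implied standard error is the log2 fold change divided by the test statistic, and errors of a pair were combined as the root of the summed squares. Regions of the subunit were assigned from general knowledge. Genes of 4 of the proteins are in the counts, sums and medians but are not reported here singly or drawn as points. Among the other proteins all called members were named, with the 3 largest and 3 smallest changes, the highest and lowest level, paralogues of called members, pairs differing by over 0.3, and up to 4 called genes of each other list; other genes named were chosen after their values were seen. Sharing of 50-base windows, coding identity (Biopython 1.88, global alignment) and promoter letters were computed from RefSeq. Alternatives were other q thresholds and adjustments, filters, pseudocounts of 1 and 0.1 FPKM on the log2 scale, centring and scaling. The calling step was tested on simulated data. The work used matplotlib 3.10.9, scipy 1.17.1, numpy 2.4.6 and pandas 2.3.3 under Python 3.11.15.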

Additional observations from a re-analysis of the deposited data

How the results depend on the processing

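The count of 40S genes called higher, 19, was 4 at an authors' q of 0.01, 12 and 11 under Benjamini-Hochberg adjustment over tested rows of 1 FPKM or more and over all tested rows, 0 under Bonferroni adjustment, 8 with a minimum of 1.2-fold, and 0 after centring on the median of rows of 100 FPKM or more. It was 26 at a q of 0.10. With a filter at 1 FPKM, with rows of a single gene and with the shared rows added it stayed at 19, as it had to. The lowest member mean was 1.12 FPKM, each of the 56 already had a row of its own, and none of the shared rows passed. The count of other small subunit genes, 8, was 1, 13, 0, 2 and 0 at a q of 0.01, a q of 0.10, under Bonferroni adjustment, with 1.2-fold and after centring. The 1 biogenesis gene was lost under Bonferroni adjustment and centring, with 0 higher in each and 1 gene of that list lower after centring. In none of these settings was a 40S gene called lower; the centring and the shared rows were chosen after seeing the data. The median log2 fold change of 0.20 was 0.19 after centring on rows of 1 FPKM or more, 0.04 after centring on rows of 100 FPKM or more and 0.20 with either pseudocount. The ratio of summed FPKM, 1.16, was 1.16 without the 3 members of highest level. With both groups scaled to the same median FPKM it was 1.17. No scaling to the total was tried. The share of all FPKM, 1.55% in silex and 1.69% in epic2, differed by a smaller factor. The largest shift of share, in RPS6, was 2.58 points in each variant tried. Those variants could not move the RPS6 value, since they added no RPS6 gene and removed no member. No paired analysis was possible because the authors pooled the replicates into 1 value per group, and no replicate could be left out. The median implied standard error was 0.16 over the 6 genes under 30 FPKM and 0.09 over the members of 100 FPKM or more.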
